A study of Mus musculus with 2 samples.

Results

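Sites of the transcription factor KLF6 that lay more than 100 kb from the start of the assigned gene were examined in a cell line of mouse hepatocellular carcinoma (HCC). They were chosen by position and annotation alone: outside the assigned gene, with a summit over 100 kb from its start, and with a gene description that did not name the small RNA databases RFAM or miRBase. By this rule 197 of 742 sites of experiment 1 (26.5%, exact Clopper-Pearson 95% interval 23.4 to 29.9) and 191 of 901 sites of experiment 2 (21.2%, interval 18.6 to 24.0) were members, 388 of 1643 listed sites in all. All intervals of shares given here cover counting error only. Chromatin immunoprecipitation with sequencing (ChIP-seq) was done with an antibody against V5 on cells transfected with a plasmid for full-length KLF6 joined to the V5 tag. DNA of the same kind of cells without precipitation (input) was the control, so both arms carried the plasmid, and cells without the tagged protein were not among the samples. There was 1 ChIP and 1 input sample, each with libraries of 2 replicates, and the authors called sites once per replicate, here experiments 1 and 2. By its name, the list of experiment 1 joined 2 parts of the first replicate, and the name does not say what these parts are. The lists hold positions and no expression values, so the labelled cell type could not be checked against markers. No value per library is given and the read totals are unknown, so the members were described and not tested, and a site absent from a list cannot be set against the depth of that list.

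KLF6 belongs to the Krüppel-like family, whose members bind GC-rich DNA such as GC boxes and CACCC boxes through zinc fingers at the C-terminus. It is widely expressed, responds to injury in the liver, and is studied as a tumour suppressor and for its shorter splice forms. Gene deserts are long stretches without protein-coding genes. They often flank genes for developmental regulators and for adhesion proteins of the nervous system, and some hold enhancers that act over long distances.

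Whether the members lie in gene deserts could not be shown, since the rule sets the distance and genes that neither list names were not placed in mm9. For some members the name did not hold. The median distance to the gene start was 235 kb in experiment 1 (101 to 1243 kb) and 189 kb in experiment 2 (100019 bp to 1847 kb). Upstream and downstream members were about equally frequent, with 101 and 96 in experiment 1 and 100 and 91 in experiment 2. Since distance was taken to the gene start, 8 members of experiment 1 and 18 of experiment 2 had their summit within 100 kb of the gene's far end. The closest of these lay 7.5 kb past the end of the gene for olfactomedin 3, on chromosome 3. At the limit itself, the first members inside it lay 100897 and 101360 bp away in experiment 1 (12.2-fold and 6.66-fold) and 100019 and 100752 bp away in experiment 2 (12.4-fold and 11.2-fold). The last sites outside it lay 99323 and 99603 bp away in experiment 1 (6.66-fold and 7.75-fold) and 99411 and 99567 bp away in experiment 2 (12.7-fold and 10.2-fold).

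Some members lay inside a long gene other than the assigned one. The lists give the span of 1330 distinct genes in the mouse build mm9, and 3 members of experiment 1 and 11 of experiment 2 had their summit within such a span. In experiment 1 these genes were Auts2 (1104 kb long), the heparan sulphate proteoglycan gene Gpc5 (1432 kb) and Mdga2 (750 kb), which encodes a membrane-anchored adhesion regulator of synapses. In experiment 2 they included Cntnap2, a neurexin-like adhesion gene of 2241 kb, the genes for contactin 4 (1022 kb), for the synaptic scaffold discs large homolog 2 (1358 kb) and for metabotropic glutamate receptor 5 (532 kb), and Kcnd2, a potassium channel gene of 514 kb. Their sites were of 5.04-fold to 7.99-fold in experiment 1 and 6.97-fold to 14.3-fold in experiment 2. All 14 had a false discovery rate (FDR) of 100%, as did 89.8% and 97.9% of all members. None of the 14 overlapped a site of the other experiment, where 6.60% and 6.81% of all members did. The exact interval for 0 of 11 in experiment 2 reaches 28.5%, so a difference from other members cannot be read from these counts. A gene that neither list names could not be checked, so these counts are lower limits. The assigned gene had no description for 74 members of experiment 1 and 62 of experiment 2, and a gene symbol for 78 and 89.

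Most members were weak calls. The median fold enrichment, the authors' ratio for each site, was 6.66 in experiment 1 (95% order-statistic interval 6.62 to 7.17, range 3.29 to 29.99). It was 10.5 in experiment 2 (interval 9.64 to 10.8, range 4.03 to 26.8). Over all sites the medians were 7.17 and 10.0. Members had a median of 19 tags in experiment 1 (14 to 80) and 11 tags in experiment 2 (9 to 38), where all sites had 21 and 11. The highest member reached 80 tags, against 583 over all sites of experiment 1, and 38 tags against 1221 in experiment 2. The score (the −log10 of the p-value that the peak caller gave, times 10) had a median of 56.7 and 55.5 among members. Over all sites its medians were 58.3 and 55.7, and no listed site was under 50.02. An FDR of 5% or lower was given to 4 members of experiment 1, where 8.22% of all 742 sites had it. In experiment 2 it was given to 0 members and 0 of all 901 sites, and the lowest FDR of a member there was 23.5%. An FDR of 100%, the upper end of its range, was listed for 177 members of experiment 1 (89.8%) and 187 of experiment 2 (97.9%), and over all sites for 78.7% and 96.8%.

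The fold values were coarse. In experiment 2, 29 members had exactly 11.15-fold and 18 had 9.56-fold, and 75 of 191 members (39.3%) lay within 0.0055 of a whole multiple of 1.593. In experiment 1, 19 members had exactly 6.66-fold, and 65 of 197 (33.0%) lay within 0.0055 of a whole multiple of 0.666. Over all sites these shares were 29.2% in experiment 2 and 28.3% in experiment 1, and values spread evenly would give 0.691% and 1.65%. The steps were estimated from the whole lists, and what sets them is not given in the sources used here. The commonest member values are 7 steps in experiment 2 and 10 steps in experiment 1.

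**Figure D1:**
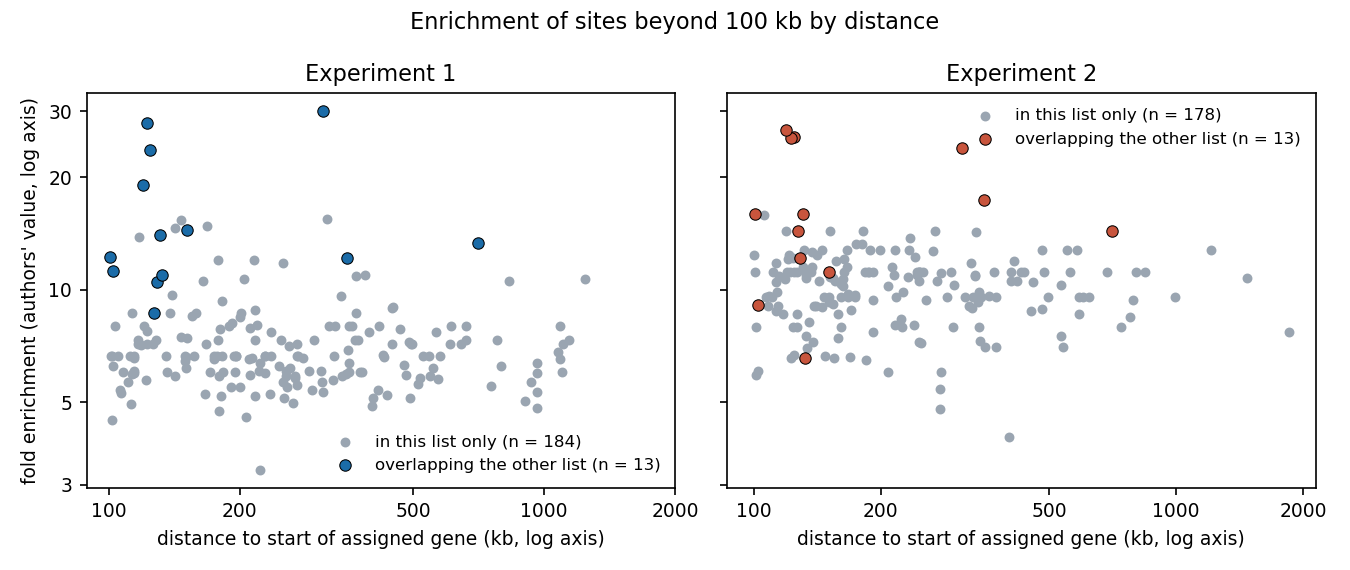
Fold enrichment (authors' value, log axis) of each member against its distance to the start of the assigned gene in kb (log axis), for experiment 1 (left) and experiment 2 (right). Grey points are members found in that list alone and coloured points the 13 that overlap a site of the other list. The coloured points lie mostly within 200 kb and at the upper edge of the cloud.

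Few members were found in both experiments. Of the 197 members of experiment 1, 13 overlapped a site of experiment 2 by at least 1 bp (6.60%, interval 3.56 to 11.0), where 14.7% of all its sites did. Of the 191 members of experiment 2, 13 overlapped a site of experiment 1 (6.81%, interval 3.67 to 11.4), where 12.4% of all its sites did. These form 13 pairs with the same assigned gene, spread over 12 chromosomes. Their summits lay 1 to 44 bp apart with a median of 7 bp, and each site of experiment 2 lay wholly within its partner of experiment 1, whose sites are wider (median 535 bp among members against 293 bp). Fold was higher in experiment 2 in 8 pairs and lower in 5, with a ratio of experiment 2 to experiment 1 from 0.601 to 1.66 and a median of 1.08.

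The 4 strongest pairs had over 19-fold enrichment in both experiments. The site 311 kb upstream of Cntnap5b, a neurexin-like gene of the contactin-associated family, lay on chromosome 1 from 101357970 to 101358590 with 50 tags in the first experiment and 15 tags in the second. It reached 29.99-fold, the highest value of any member of experiment 1, and 23.9-fold. Its FDR was 3.7% in experiment 1 and 51.9% in experiment 2. In the order of RefSeq genes of assembly GRCm38.p6, which served here for order only, the next protein-coding gene on that side of Cntnap5b is Slco6d1, of the organic anion transporter family.

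On chromosome 11, a site 123 kb downstream of the start of 4933434M16Rik (112808812 to 112809630) reached 28.0-fold in experiment 1 from 61 tags (FDR 3.33%). In experiment 2 it reached 25.4-fold from 27 tags (FDR 44.4%), and its score of 212 was the highest of any member there. The site near cystatin 10, a cysteine protease inhibitor gene of cartilage, lay 119.6 kb downstream of the gene start on chromosome 2 (149350165 to 149350671). In experiment 1 it reached 19.0-fold from 37 tags, with the lowest FDR of any member at 1.67%. Experiment 2 gave it 26.8-fold from 20 tags, the highest fold of any member of that list. The highest score of a member of experiment 1, 368, was found on chromosome 10 from 12408572 to 12409241. Its fold was 23.7 in experiment 1, from 62 tags, and 25.6 in experiment 2, from 21 tags. It was assigned to a gene described as a utrophin fragment. Utrophin is a large cytoskeletal protein related to dystrophin. The summit lay 124 kb from the start and 58.8 kb from the end of that fragment, and whether it falls inside the full utrophin gene was not tested.

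Another 5 pairs had 12.2-fold to 17.4-fold in experiment 2 and 10.5-fold to 13.99-fold in experiment 1. A site 352 kb upstream of a gene named after the vesicle coat cargo protein p24A on chromosome 9 (33183803 to 33184271) had 27 tags at 12.2-fold and 15 tags at 17.4-fold. The site 101 kb upstream of 4930596D02Rik on chromosome 14 (36725868 to 36726461) had 35 tags at 12.2-fold and 16 tags at 16.0-fold. On chromosome 12 (18353754 to 18354367), a site 131 kb downstream of ENSMUSG00000073198, a gene without description, had 30 tags at 13.99-fold and 11 tags at 15.9-fold. The most distant pair lay 705 kb downstream of the start of the gene for ATP/GTP binding protein-like 1 on chromosome 7 (84260464 to 84260999). That gene is long, and the summit was 349 kb past its end, with 25 tags at 13.3-fold and 11 tags at 14.3-fold. The last of the 5 lay 129 kb upstream of the gene for alanine-glyoxylate aminotransferase 2-like 2 on chromosome 11 (51269011 to 51269499), with 23 tags at 10.5-fold and 12 tags at 12.2-fold.

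Of the remaining pairs, 3 were weaker in experiment 2 than in experiment 1. The site 151 kb upstream of the gene for collagen XI alpha 1, a fibrillar collagen of cartilage, on chromosome 3 (113582208 to 113582954) reached 14.5-fold from 43 tags in experiment 1 (FDR 2.9%) and 11.2-fold from 12 tags in experiment 2. The site 103 kb from the start of Socs1, an inhibitor of cytokine signalling, on chromosome 16 (10682841 to 10683230) had 22 tags at 11.2-fold and 12 tags at 9.10-fold. In RefSeq order the next protein-coding gene on that side of Socs1 is Clec16a, and whether the site lies inside it could not be checked in mm9. The site 132 kb upstream of the gene for regulatory factor X 3, a transcription factor of ciliated cells, on chromosome 19 (28217646 to 28218486) had 35 tags at 10.9-fold and 19 tags at 6.56-fold, the widest gap of these 3. The last pair, 127 kb downstream of ENSMUSG00000062226 on chromosome X (108490743 to 108491093), went the other way, with 14 tags at 8.66-fold and 12 tags at 14.3-fold. The 4 members whose FDR in experiment 1 was at most 5%, at Cntnap5b, 4933434M16Rik, cystatin 10 and collagen XI alpha 1, were among the 13 pairs, and 9 of the 13 had an FDR of 100% in experiment 2.

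**Figure D2:**
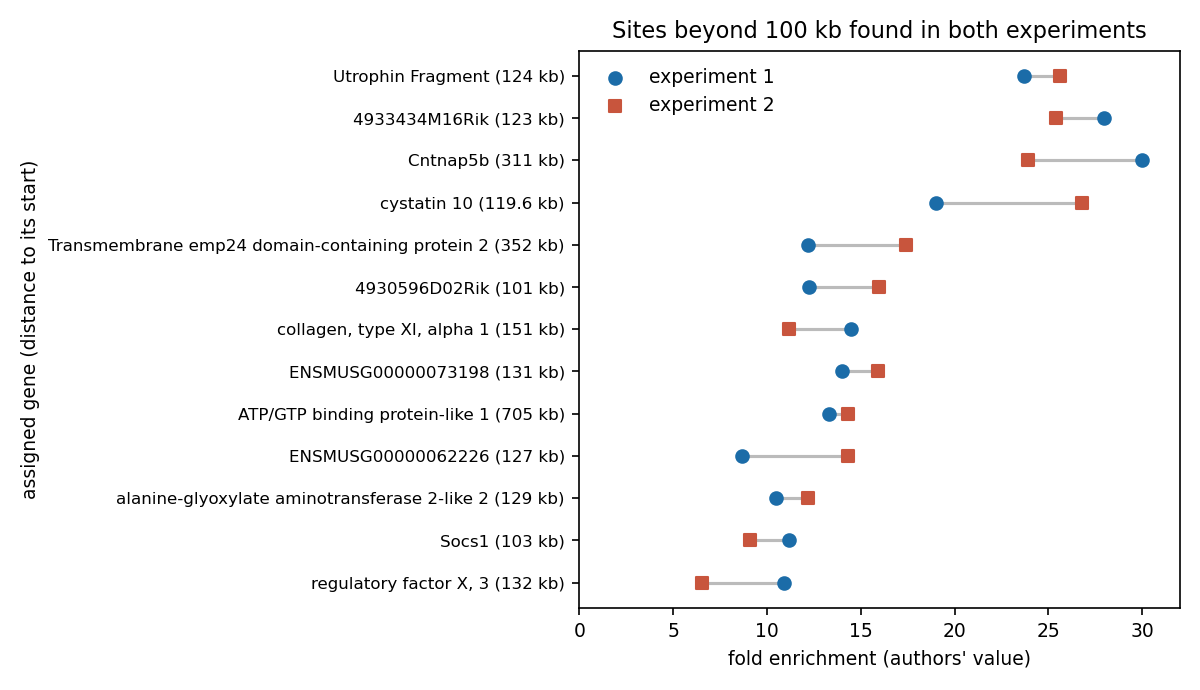
Fold enrichment (authors' value) of the 13 member sites found in both experiments, ordered by mean rank of score, with the distance to the start of the assigned gene in kb. Circles are experiment 1, squares experiment 2 and grey lines join a pair. The 4 uppermost pairs lie above 19-fold in both experiments, and 8 of the 13 pairs have the higher value in experiment 2.

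By count, fewer of the more distant members were shared. Of the members between 100 and 200 kb, 10 of 79 in experiment 1 (12.7%, interval 6.24 to 22.0) and 10 of 100 in experiment 2 (10.0%, interval 4.90 to 17.6) were shared. Between 200 and 500 kb the counts were 2 of 86 (2.33%, interval 0.283 to 8.15) and 2 of 70 (2.86%, interval 0.348 to 9.94), and beyond 500 kb they were 1 of 32 and 1 of 21. The median fold of experiment 1 was 6.66 in each of these 3 distance classes, and in experiment 2 it was 10.7, 10.4 and 9.56. For comparison, sites 20 to 100 kb away were shared in 15.7% (28 of 178) and 11.1% (28 of 253), and sites outside genes within 20 kb in 20.7% (34 of 164) and 21.3% (37 of 174). The intervals of neighbouring classes overlap, and the differences between classes were not tested, since sites of a list are not replicates.

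**Figure D3:**
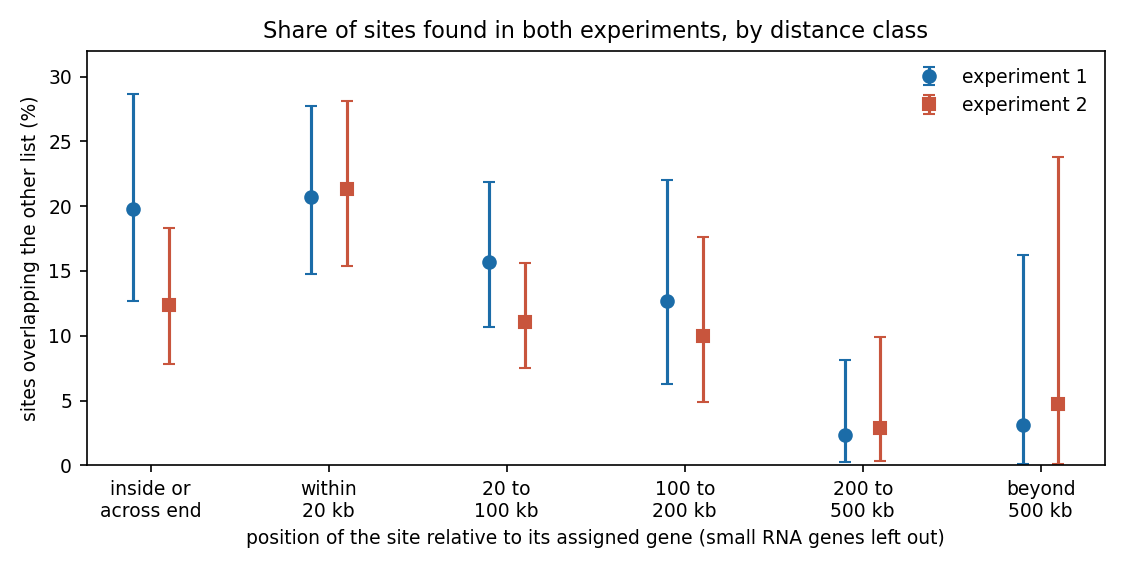
Percentage of sites that overlap a site of the other experiment by at least 1 bp, by position relative to the assigned gene, with exact 95% binomial intervals as bars. Circles are experiment 1 and squares experiment 2, and sites assigned to small RNA genes are left out. The points lie at 10.0% or higher up to 200 kb and under 5% beyond.

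High scores were less frequent among members than among other sites by share, with small counts in experiment 2. High-scoring sites were shared more often by count. Above a score of 100 there were 18 of 197 members and 129 of 545 other sites in experiment 1. Of these, 9 (50%, interval 26.0 to 74.0) and 74 (57.4%, interval 48.4 to 66.0) were shared. In experiment 2, 5 of 191 members and 34 of 710 other sites were above this score. All 5 of these members and 31 of the 34 other sites were shared. Between scores of 60 and 100 the shared sites were 3 of 50 members and 15 of 144 other sites in experiment 1, and 5 of 45 and 47 of 177 in experiment 2. At 60 or lower they were 1 of 129 members and 7 of 272 other sites in experiment 1, and 3 of 141 and 21 of 499 in experiment 2. The part of score in the lower sharing of members was not tested.

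The members found in 1 experiment alone had a median of 6.66-fold in experiment 1 (n = 184, 3.29 to 15.5) and 10.3-fold in experiment 2 (n = 178, 4.03 to 15.9). Shared members had 13.3-fold and 15.9-fold. The strongest site of experiment 1 alone lay 316 kb upstream of Gpc6, a glypican gene that encodes a cell surface heparan sulphate proteoglycan, on chromosome 14 (117008378 to 117008983), with 31 tags at 15.5-fold and an FDR of 26.3%. In RefSeq order its neighbour on that side is Gpc5, another glypican gene. The next lay 147 kb from the start of Pcdh20, a protocadherin gene, also on chromosome 14 (88724298 to 88725070), with 31 tags at 15.3-fold and an FDR of 56.6%. A site 117 kb upstream of Pln, the gene for the calcium pump regulator phospholamban, on chromosome 10 (52939940 to 52940671), had the lowest FDR of the unshared members, at 8.54%, with 42 tags at 13.9-fold. In experiment 2 the strongest unshared site lay 106 kb upstream of Man1a, an alpha-mannosidase gene of N-glycan trimming, on chromosome 10 (53901320 to 53901597), with 13 tags at 15.9-fold. Several followed at 14.3-fold, among them a site near the insulin gene Ins1, 119.6 kb from its start on chromosome 19 (52458422 to 52458695), with 10 tags. Both had an FDR of 100%, as did all 178 unshared members of experiment 2.

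Members were found on each of the 19 autosomes and on chromosome X in both experiments, in uneven numbers. Chromosome 3 held 33 members in experiment 1, the most of any chromosome and 16.8% of the members, although it held 8.49% of all sites. They made up 52.4% of its 63 sites (interval 39.4 to 65.1). In experiment 2, chromosome 3 held 17 members, 23.9% of its 71 sites (interval 14.6 to 35.5). Chromosome 6 held 20 members in experiment 1 and 22 in experiment 2, the most there. These were 26.7% and 31.0% of its sites, where members were 26.5% and 21.2% of all sites. Chromosome 8 held 18 and 11, which are 45.0% and 29.7% of its sites. Low counts were found on chromosome 4, with 2 and 6 members (5.41% and 16.7% of its sites), and on chromosome 9, with 3 and 4 (11.5% and 10.3%). Chromosome 7 held 4 and 5 members, but it had only 23 and 21 sites, so these were 17.4% and 23.8%. Chromosome X held 8 members of 42 sites and 3 of 63. The 33 members on chromosome 3 had a median of 6.52-fold, and 1 of them, near collagen XI alpha 1, was shared. The sizes of intergenic regions and the copy number of the line were not analysed here, and single chromosomes were not tested.

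**Figure D4:**
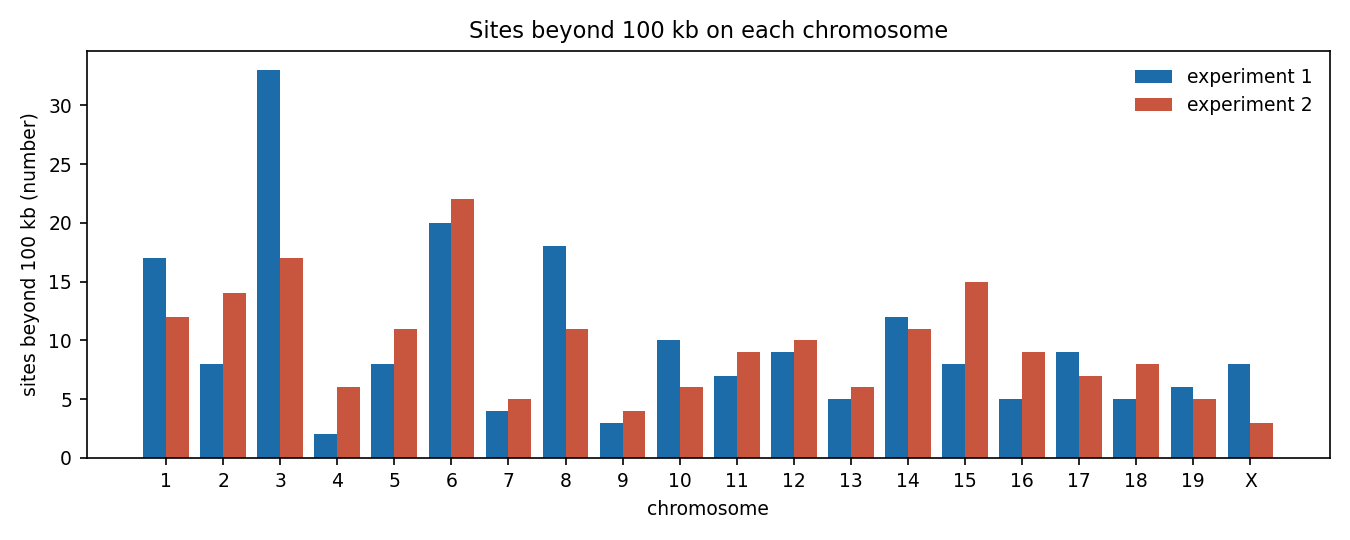
Number of members on each chromosome in experiment 1 (blue) and experiment 2 (red). Chromosome 3 stands out in experiment 1 with 33 members against 17 in experiment 2, and chromosome 6 holds 20 and 22.

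Members gathered along chromosomes more in experiment 1 than in experiment 2 by count. Another member summit lay within 1 Mb of 93 members of experiment 1 (47.2%) and of 41 members of experiment 2 (21.5%). The same count over all sites gave 413 of 742 (55.7%) and 490 of 901 (54.4%). Members are only 197 and 191 of these sites, so a site had more possible neighbours than a member. The shares are thus not on an equal footing. Within 100 kb there were 25 and 11 such members. Runs of 3 or more member summits, each within 1 Mb of the next, numbered 9 in experiment 1, with 31 sites of 3.29-fold to 10.7-fold, and 2 in experiment 2, with 7 sites of 6.57-fold to 14.3-fold. Over all sites, again with more possible neighbours, the order was the other way, with 54 such runs in experiment 1 and 66 in experiment 2. No site in a run overlapped the other list, where 6.60% and 6.81% of all members did. With 31 and 7 sites in runs, a difference from other members was not tested. Of the 13 shared members, 3 in experiment 1 and 0 in experiment 2 had another member within 1 Mb.

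Of the 9 runs of experiment 1, 4 lay on chromosome 3. They held 13 sites, upstream of the protocadherin gene Pcdh10 (236, 961 and 1138 kb, at 7.69-fold, 4.82-fold and 7.33-fold), downstream of Zbbx, a B-box zinc finger gene (136, 236 and 527 kb, at 6.0-fold to 6.66-fold), near a tubulin tyrosine ligase-like gene (378 to 645 kb, at 6.0-fold to 7.17-fold) and near ENSMUSG00000045952. The last had 4 sites between 512 and 1087 kb from the gene, at 5.60-fold to 7.33-fold. On chromosome 8, 3 sites lay 118 to 405 kb upstream of the gene for annexin A10, a calcium-dependent lipid-binding protein (5.12-fold to 7.11-fold). The longest run by number lay on chromosome 17, with 5 sites in 1138 kb, of which 4 were assigned to the olfactory receptor gene Olfr136. Of its 5 sites, 1 stood out most from the other runs. The site 223 kb from Olfr136 (38694823 to 38696847) had 80 tags, the most of any member, at 3.29-fold, the lowest fold of any member of experiment 1, and was the widest member at 2025 bp. Its tags divided by its fold gave 24.3, where the median over members of experiment 1 was 2.70, and the other 3 sites at Olfr136 gave 4.49, 7.40 and 2.32.

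In experiment 2 the longer run held 4 sites on chromosome 6 on both sides of Mdfic, which encodes an inhibitor of myogenic regulators. A site 327 kb upstream had 11.8-fold, and sites 123, 215 and 246 kb downstream of the start had 6.57-fold, 11.0-fold and 7.23-fold. The nearest of these was 41.2 kb past the end of Mdfic. The other run lay on chromosome 2 with 3 sites in 589 kb (10.7-fold to 14.3-fold), near genes without description.

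**Figure D5:**
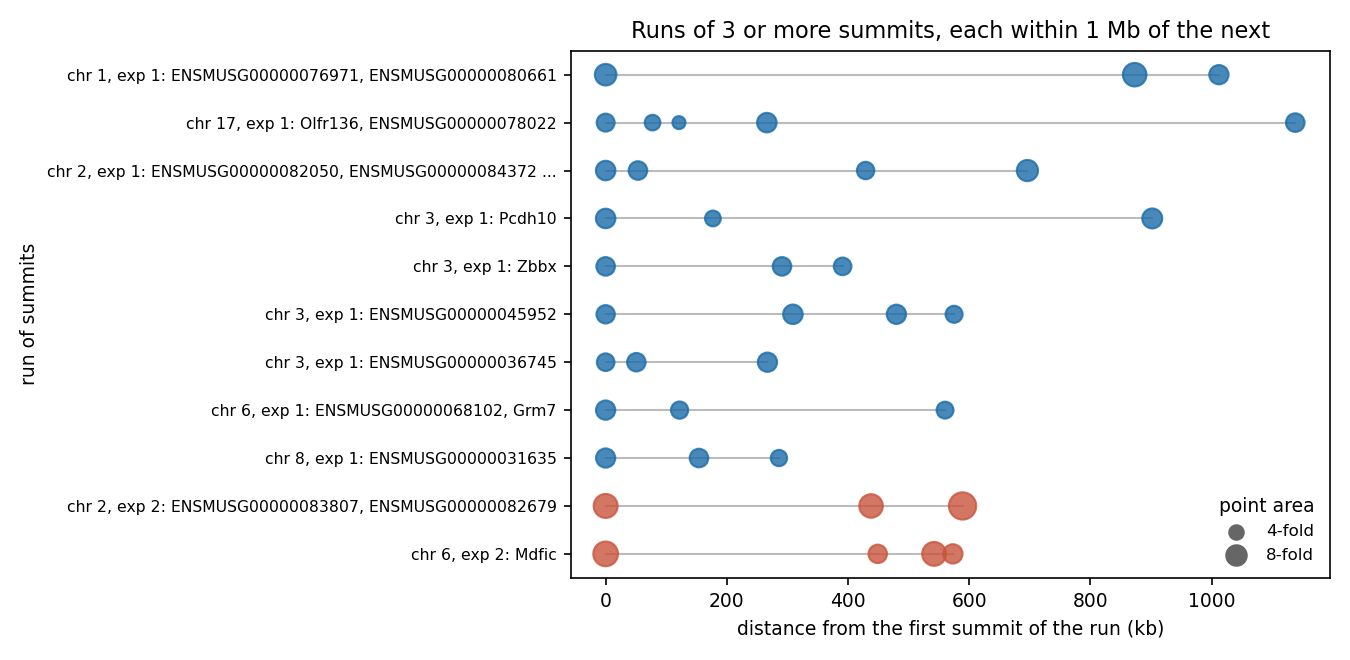
Runs of 3 or more member summits, each within 1 Mb of the next, drawn as the distance in kb from the first summit of the run, with point area in proportion to fold enrichment. Blue runs are from experiment 1 and red runs from experiment 2, and labels give the chromosome and assigned genes. Experiment 1 has 9 runs, 4 of them on chromosome 3, and experiment 2 has 2.

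Assigned genes with a symbol were grouped by lists of symbol prefixes, which do not hold every gene of a kind and pass over genes that the lists give without a symbol. The cadherin and protocadherin prefixes, for calcium-dependent adhesion proteins, took 10 members at 7 genes in experiment 1 (Cdh5, Cdh9, Cdh10, Cdh19, Pcdh10, Pcdh17 and Pcdh20). These were 12.8% of the 78 members with a symbol, beside 3.26% of all 307 sites with a symbol, and each site of experiment 1 under these prefixes was a member. In experiment 2 there were 3 members at Cdh6 and Cdh18, 3.37% of 89, beside 1.04% of all 384. Their median was 6.66-fold in experiment 1 and 9.56-fold in experiment 2, and 12 of the 13 sites had an FDR of 100%. None was shared, where 6.60% and 6.81% of all members were. The rule selects by distance, and the length of the regions around these genes was not analysed here, so the share was not tested.

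The prefixes for synaptic and neural adhesion took 6 members in experiment 1, at Cntnap5b, Cntn6 (147 kb, 7.48-fold), Cntnap2 (206 kb, 4.56-fold), the ephrin receptor gene Epha3 (296 kb, 7.33-fold) and Lrrtm4 (354 and 362 kb, 6.89-fold and 7.99-fold). That is 7.69% of members with a symbol and 3.58% of all sites with one. In experiment 2 they took 1 member, at Cntnap5b, which is 1.12% beside 1.3%, so the order of the shares was not the same in both experiments. Genes of these kinds that the lists give without a symbol were passed over. Among them in experiment 1 were contactin associated protein-like 4 (106 kb, 5.38-fold) and semaphorin 6D (370.3 kb, 8.66-fold). Outside the prefixes lay a pair of members of experiment 2 at cell adhesion molecule 2 (137 kb at 11.2-fold and 789 kb at 9.37-fold). These genes were picked after their values were seen.

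Among transcription regulators, the prefixes took Six2 (200.1 kb, 8.44-fold) and Tcfec (151 kb, 7.40-fold) in experiment 1, 2.56% of members with a symbol beside 1.3% of all sites with one. In experiment 2 they took Twist1, a mesoderm and epithelial-mesenchymal transition factor (163 kb, 11.2-fold), Foxq1 (139 kb, 7.23-fold) and Atoh1 (133 kb, 6.97-fold), 3.37% beside 1.3%. Other regulators lay outside the prefixes and were likewise picked after their values were seen. They include Shox2 (259 kb, 7.07-fold) and Dmrt2 (269.9 kb, 7.17-fold) in experiment 1, Barhl2 (114 kb, 9.03-fold) and the thyroid hormone receptor gene Thrb (139 kb, 9.03-fold) in experiment 2, and regulatory factor X 3 in both. Of the KLF and SP family, 1 member was found, 191 kb upstream of Klf6 itself in experiment 2, with 11 tags at 9.36-fold.

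The prefixes for channels and transmitter receptors took 2 members in experiment 1 (2.56% beside 3.91% of all sites with a symbol) and 3 in experiment 2 (3.37% beside 3.65%). Kcnd2 was among them in both lists, 288 kb upstream at 6.07-fold and 125 kb upstream at 6.69-fold, not overlapping. Receptors outside the prefixes included Adra2a, an adrenergic receptor gene, in experiment 1 (449 kb, 8.97-fold) and the tachykinin receptor gene Tacr3 in experiment 2 (141 kb at 12.4-fold and 216 kb at 8.03-fold). The proteoglycan and matrix prefixes took 3 members in experiment 1, Gpc6 with 2 and the hyaluronan synthase gene Has2 (251 kb, 5.64-fold), 3.85% beside 2.61%. In experiment 2 they took Hs3st5 (150.5 kb, 9.56-fold), 1.12% beside 1.04%. Among those they passed over were collagen XI alpha 1, a member in both lists without a symbol, and Hapln1, a link protein gene of the matrix, in experiment 2 (124 kb, 12.2-fold). Chemoreceptors took 4 members in experiment 1, all at Olfr136 (5.13% beside 6.51%), and 1 in experiment 2, Olfr1505 (133 kb, 11.0-fold), which is 1.12% beside 4.69%.

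Some of the most distant members lay in very long intervals between listed genes, of which 3 were measured, picked after their sites were seen. On chromosome 14, 4421 kb separate Olfm4, a secreted glycoprotein gene, from Pcdh17, with no other listed gene between. Experiment 2 had a site there 1847 kb from Olfm4, the farthest of all members (10 tags, 7.72-fold), and experiment 1 had sites 1077 and 555 kb upstream of Pcdh17 (6.82-fold and 6.15-fold). On chromosome 3, 3619 kb separate a gene named after the human protein C4orf33 from Pcdh10. Experiment 1 had 4 members in this interval, of 4.82-fold to 7.69-fold, and experiment 2 had 2, of 12.7-fold and 10.7-fold, 1211 and 1470 kb from the first gene. On chromosome 15, 3604 kb lie between Cdh6 and Cdh9, with 1 other listed gene. There experiment 1 had 2 members, and experiment 2 had 3, among them sites 243 and 992 kb upstream of Cdh6 (11.0-fold and 9.56-fold). In RefSeq order Olfm4 and Pcdh17 are neighbouring protein-coding genes, as are Cdh6 and Cdh9. The neighbour of Pcdh10 on the side of its sites is D3Ertd751e. Each site of these intervals had an FDR of 100%, and none was found in both experiments, where 6.60% and 6.81% of all members were. The farthest member of experiment 1 lay 1243 kb upstream of ENSMUSG00000080661 on chromosome 1 (18 tags, 10.7-fold).

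Genes named by members of both experiments had overlapping sites in some cases and separate sites in others. Members were assigned to 161 genes in experiment 1 and 174 in experiment 2, and 34 genes were in both (21.1% and 19.5%). Over all sites, 166 genes were in both lists, 25.4% of 653 and 19.7% of 843. At 13 of the 34 genes of members the sites overlapped. At the other 21 the closest summits of the lists lay 3.6 to 665 kb apart, with a median of 208 kb. This split was not counted over all sites. Among these 21 were Agxt2l1 (summits 35.0 kb apart), the axonemal dynein gene Dnahc5 (42.9 kb), Plxna2, a semaphorin receptor gene (233 kb), Mbd2, a methyl-DNA binding protein gene (234 kb), and Cbln2, a synapse organiser gene (352 kb). Any site of experiment 2 lay within 10 kb of 14 members of experiment 1 (7.11%), within 100 kb of 27 (13.7%) and within 1 Mb of 103 (52.3%). Over all sites of experiment 1 the shares were 15.5%, 20.6% and 58.5%. Beyond the 13 overlapping pairs, a single member of experiment 1 thus had a site of the other experiment within 10 kb.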

How the data were processed

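DNA from V5 precipitation and from input was sequenced, and 2 lists of sites were used. The submitters' processing notes name MACS 1.3.6 and mm9, without saying for which step. The sources used here give neither the aligner nor its parameters. Per the file headers, the authors give a tag count, which is not normalised, and a score that is the −log10 of a p-value times 10. Fold enrichment was deposited by the authors as a ratio, and the FDR as a percent. Distances in bp are the authors' deposited values, and coordinates are printed as deposited.

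Members, overlaps (at least 1 bp), runs of summits (1 Mb) and medians were computed with Python 3.11.15, pandas 2.3.3 and scipy 1.17.1, and the counting was tested on simulated data. With 1 sample per group, no test was made. Members, gene groups and settings were chosen with earlier results of these data known. Named sites were the shared members, the 6 highest by fold and 4 farthest per list, those in runs, with an FDR of 5% or lower, at the limit, or in the 7 gene groups (symbol prefixes). Those in long genes, at Pln, Man1a and Ins1, at the ends of genes and at genes in both lists were picked after their values were seen. Of 137 symbols, 120 matched a RefSeq gene (GRCm38.p6) on the same chromosome, used for gene order only.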

Additional observations from a re-analysis of the deposited data

How the results depend on the processing

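Of 22 alternatives, 15 were planned and 7 were chosen after seeing the data, and 10 stayed within 1.5 times the count or within the interval of the median. Members above 200 kb numbered 118 in experiment 1 and 91 in experiment 2, as the stricter limit implies. Without genes that lack a description, 123 members of experiment 1 remained, and those with another member within 1 Mb numbered 44 in experiment 1 and 24 in experiment 2. An overlap of 50% of both sites left 4 shared pairs, since sites of experiment 2 are narrower and lie within those of experiment 1. Among the higher-scoring 50% of sites, the median fold was 7.98 in experiment 1 and 11.2 in experiment 2, and members near another within 1 Mb numbered 13 and 10. With a window of 100 kb these were 25 and 11. Fewer sites or a shorter window lower such counts by construction. No paired analysis was possible because the lists hold no values per library and the result comes from no test. The read totals are unknown, so no limit of detection can be given.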

Other observations

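Close neighbours within a list were counted among members alone, and not over all sites. A gap of at most 10 kb between neighbouring members was found 2 times in experiment 1 and 1 time in experiment 2. The pair upstream of Lrrtm4, a synaptic adhesion gene on chromosome 6, lay 7646 bp apart, with 20 tags at 7.99-fold and 17 tags at 6.89-fold. The pair on chromosome 8, 1096 and 1089.6 kb from ENSMUSG00000080549, lay 6405 bp apart (16 tags at 6.0-fold and 20 tags at 7.97-fold). In experiment 2 the pair near Cox7b2, which encodes a subunit of cytochrome c oxidase, lay 8802 bp apart on chromosome 5 (12 tags at 6.02-fold and 10 tags at 12.7-fold). None of these 6 sites overlapped the other list, where 6.60% and 6.81% of all members did.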
